A study of Mus musculus with 10 samples.

Results

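The early effect of the IL-3 dose on transcript levels was read from 4 of the 10 arrays of the series: 2 arrays of 32Dcl3 cells kept for 2 h in high IL-3 and 2 arrays of cells kept for 2 h in low IL-3, 1 of each per experiment. The arrays were chosen by their titles, which give the time, the dose and the experiment number. Of the probe sets on the array, the 11856 with a mean intensity of at least 50 over the 10 arrays were tested.

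32Dcl3 is a mouse myeloblast line that depends on IL-3 for growth and survival, and it was the only source of RNA. Each of the 2 experiments began with a single culture, whose IL-3 was removed and whose transcription was stopped by 10 µg/ml of actinomycin D before it was split between the doses. The high IL-3 part received 1 ng/ml and the low IL-3 part 10 pg/ml, so that both groups had been deprived of the cytokine and both were transcriptionally blocked. Total RNA was taken at 0, 2 and 4 h and hybridized to Affymetrix mouse 430A 2.0 arrays. The labels place the 0 h sample just before actinomycin D in 1 field and after it in another. The cells are 1 line, and the 2 experiments are repeat cultures of it. The fit removes the mean difference between those cultures. The p-values measure only how far differences between the 5 groups varied from 1 culture to the other, with variance shared across probe sets.

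With transcription blocked, the amount of a transcript falls only through decay. The arrays were normalized together, so the intensities are relative signal and not absolute amounts of RNA. A higher level in one culture than in its divided partner is therefore a difference in relative signal left. Some signals lay above their 0 h level: Il3ra in high IL-3 at 2 h was at 164% and 142% of it in experiments 1 and 2. The source of such values was not tested. Shares of the 0 h signal left are thus not shares of RNA left. Many transcripts of cytokines, growth regulators and transcription factors are short-lived. AU-rich elements in their 3′ untranslated regions bind proteins, among them those of the Zfp36 family, that recruit the deadenylation and decay machinery. Kinase pathways downstream of cytokine receptors are known to modify such proteins. IL-3 itself acts through a receptor made of the Il3ra subunit and a beta chain (Csf2rb, or in mice also Csf2rb2), which activates JAK2, STAT5, RAS to ERK signalling and PI 3-kinase.

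The arrays of both doses were alike in most of their signal. The median intensity over all probe sets was 59.0 and 49.4 in high IL-3 at 2 h and 59.2 and 50.8 in low IL-3 at 2 h (experiments 1 and 2 here and below). The Pearson correlation of intensities across probe sets between high and low IL-3 was 0.995 within experiment 1 and 0.997 within experiment 2. It was 0.987 between the experiments in high IL-3, against 0.979 in low IL-3, so the experiments differed more than the doses did. Of 8 myeloblast marker genes, 5 had a mean of at least 50 (Ctsg, Mpo, Ms4a3, Myb and Prtn3), and Cd34, Elane and Kit were below it. The summed intensity of the list was 16178 and 9439 in high IL-3 and 14407 and 9368 in low IL-3. None of the 4 lymphocyte markers on the array reached that mean, against 2 of 5 macrophage, 3 of 5 mast cell and basophil, and 3 of 5 erythroid and megakaryocyte markers. Apart from lymphocytes, these counts do not tell myeloblasts from the other types, and the identity of the cells rests on the line used.

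The 2 h arrays of experiment 1 stood apart from each other in one respect. Probe sets that differed between the experiments on the 6 arrays outside the 2 h comparison also differed between the doses in experiment 1: across probe sets, the difference of high minus low IL-3 correlated with the difference of experiment 2 minus experiment 1 at r = 0.42 in experiment 1 and at r = -0.16 in experiment 2. Among the 230 probe sets at least 1 log2 unit higher in experiment 2, the median log2 difference of high minus low IL-3 was 0.54 in experiment 1 and -0.14 in experiment 2, and 17.8% of them had an unadjusted p under 0.05 for higher signal in high IL-3. None of these 230 passed the adjusted threshold. In the 890 that were 0.5 to 1 log2 unit higher in experiment 2, the medians were 0.24 in experiment 1 and -0.07 in experiment 2, 10.1% were higher at an unadjusted p under 0.05, and 2 passed the adjusted threshold, those of Il6 and Pik3cd. Some single values were far from the other 3 of a probe set, such as that of Pfn1, which encodes the actin-binding protein profilin and whose probe set 1449018_at read 3221 and 4134 in high IL-3 and 767 and 4927 in low IL-3. The part of this pattern in the unadjusted counts was not tested. The array of high IL-3 in experiment 1 was the displaced one of the 4. On a scale over the 230 probe sets that is 0 at the mean of the other times in experiment 1 and 1 at that in experiment 2, its median place was 0.41, against -0.07 for the low IL-3 array of experiment 1. The arrays of experiment 2 were at 0.92 for high IL-3, against 1.03 for low IL-3. Among the 458 probe sets at least 1 log2 unit lower in experiment 2, the places in experiment 1 were 0.14 for high IL-3 and 0.03 for low IL-3. The arrays were used as labelled, and a mixing of RNA between the experiments was not tested. With the 2 h array of experiment 1 in high IL-3 left out, Il6 (adjusted p = 0.0013), Hbegf at 1418350_at (adjusted p = 0.011), Zfp36l2 (adjusted p = 0.016) and Xiap (adjusted p = 0.028) still passed in limma, and Hbegf at 1418349_at (1.21, adjusted p = 0.067), Pik3cd (0.71, adjusted p = 0.12) and 4921524J17Rik (0.84, adjusted p = 0.31) did not. The difference within each experiment is given for each main transcript.

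A small group of transcripts was higher in high IL-3 at 2 h: those of the cytokine Il6, the growth factor Hbegf, the AU-rich element binding protein Zfp36l2, the PI 3-kinase subunit Pik3cd, the apoptosis inhibitor Xiap (at 1 of 3 probe sets) and the unannotated gene 4921524J17Rik. They were 7 probe sets of 6 genes, 0.0590% of those tested, with a Benjamini-Hochberg adjusted p under 0.05 in limma and log2 differences (on the log2(intensity + 16) scale, high minus low IL-3) of 0.94 to 1.50. No probe set was lower in high IL-3 (0% of those tested). At an unadjusted p under 0.05, signal in high IL-3 was above that in low IL-3 at 522 probe sets (4.40%) and below it at 346 (2.92%). The median log2 difference over all probe sets was 0.00, on arrays that had been scaled to each other.

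These counts turn on single arrays. With the 2 h array of experiment 2 in high IL-3 left out, 222 probe sets passed as higher and 11 as lower, and with that of experiment 1 left out, 9 and 14. Leaving out the 2 h array of experiment 1 in low IL-3 gave 9 and 2. The 0 h and 4 h arrays enter through the shared variance: leaving out 0 h of experiment 1 or 2 gave 17 and 3, or 18 and 4, and leaving out low IL-3 at 4 h of either experiment gave 2 and 0. Of the 522 and 346 unadjusted differences 60.1% were upward. That share was 33.4% with the 2 h array of experiment 1 in high IL-3 left out and 81.4% with that of experiment 2 left out. It was 70.3% with the 2 h array of experiment 1 in low IL-3 left out, 44.6% after scaling to a common 75th percentile, 51.1% after quantile normalization and 43.7% without a filter. The direction of the many small differences is therefore not settled by these arrays.

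Il6, a cytokine that acts on B cells, hepatocytes and myeloid progenitors, had the smallest p. Its intensity was 400 and 493 in high IL-3 and 127 and 169 in low IL-3, against 787 and 994 at 0 h. Both high IL-3 arrays lay above both low IL-3 arrays. In high IL-3, 50.8% and 49.6% of the 0 h signal was left at 2 h, and in low IL-3 16.1% and 17.0%. The difference was 1.50 ± 0.14 (log2, SE), or 2.83-fold, with 1.54 in experiment 1 and 1.46 in experiment 2 (adjusted p = 1.8e-04). The experiments gave nearly the same difference.

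Hbegf encodes heparin-binding EGF-like growth factor, a ligand of the EGF receptor family, and both of its probe sets passed. Probe set 1418350_at read 840 and 674 in high IL-3 and 309 and 269 in low IL-3, a difference of 1.34 ± 0.15 (adjusted p = 0.0015). Probe set 1418349_at read 192 and 154 in high IL-3 and 49.9 and 56.2 in low IL-3, a difference of 1.45 ± 0.20 (adjusted p = 0.0077). The groups did not overlap at either probe set. Of the 0 h signal of 1418350_at, 89.8% and 58.2% was left in high IL-3 and 33.0% and 23.2% in low IL-3. The retained share differed between the experiments in high IL-3, while the dose difference was 1.40 in experiment 1 and 1.27 in experiment 2.

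Zfp36l2, a CCCH zinc finger protein that binds AU-rich elements and promotes the decay of its targets, had a signal of 1588 and 783 in high IL-3 and 459 and 435 in low IL-3, against 3455 and 2940 at 0 h. Here 46.0% and 26.6% of the 0 h signal was left in high IL-3 and 13.3% and 14.8% in low IL-3. The low IL-3 arrays were close to each other and the high IL-3 arrays were apart, so that the difference was 1.76 in experiment 1 and 0.82 in experiment 2. The fitted difference was 1.29 ± 0.18, or 2.44-fold (adjusted p = 0.0077).

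Pik3cd encodes the p110 delta catalytic subunit of PI 3-kinase, the isoform found mainly in leukocytes. Probe set 1453281_at read 813 and 886 in high IL-3 and 363 and 524 in low IL-3, and passed with a difference of 0.94 ± 0.14 (adjusted p = 0.014). Its 2 other probe sets gave differences of similar size and missed the threshold. These were 1.11 ± 0.19 at 1422992_s_at (adjusted p = 0.053), with 739 and 723 in high IL-3 and 252 and 433 in low IL-3, and 0.99 ± 0.19 at 1422991_at (adjusted p = 0.070), with 215 and 244 in high IL-3 and 83.2 and 138 in low IL-3. In all 3, both high IL-3 arrays lay above both low IL-3 arrays, and the difference was larger in experiment 1 than in experiment 2. At 1453281_at, 82.8% and 56.0% of the 0 h signal was left in high IL-3, and 36.9% and 33.1% in low IL-3.

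Xiap, which binds and inhibits caspases, gave probe sets that disagreed. Probe set 1450232_at passed, with 355 and 282 in high IL-3 and 200 and 91.9 in low IL-3, a difference of 1.12 ± 0.19 (adjusted p = 0.042) that was 0.78 in experiment 1 and 1.46 in experiment 2. Probe set 1437533_at read 918 and 830 in high IL-3 and 1268 and 1086 in low IL-3, a difference of -0.42 ± 0.11 (adjusted p = 0.32). In low IL-3 at 2 h, 1450232_at kept 50.4% and 26.6% of its 0 h signal, whereas 1437533_at kept 85.3% and 103%. The remaining one, 1456088_at, had -0.38 ± 0.17 (adjusted p = 0.67). Which part of the transcript each probe set reads was not analysed here, so the value for Xiap holds for 1450232_at alone.

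The last of the 7, probe set 1454136_a_at, is named 4921524J17Rik, a gene known only by its clone identifier. It read 425 and 225 in high IL-3 and 148 and 114 in low IL-3, a difference of 1.16 ± 0.20 (adjusted p = 0.042). Its signal was 485 and 328 at 0 h. Between 68.4% and 87.6% of that was left in high IL-3 and 30.5% to 34.8% in low IL-3.

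**Figure D1:**
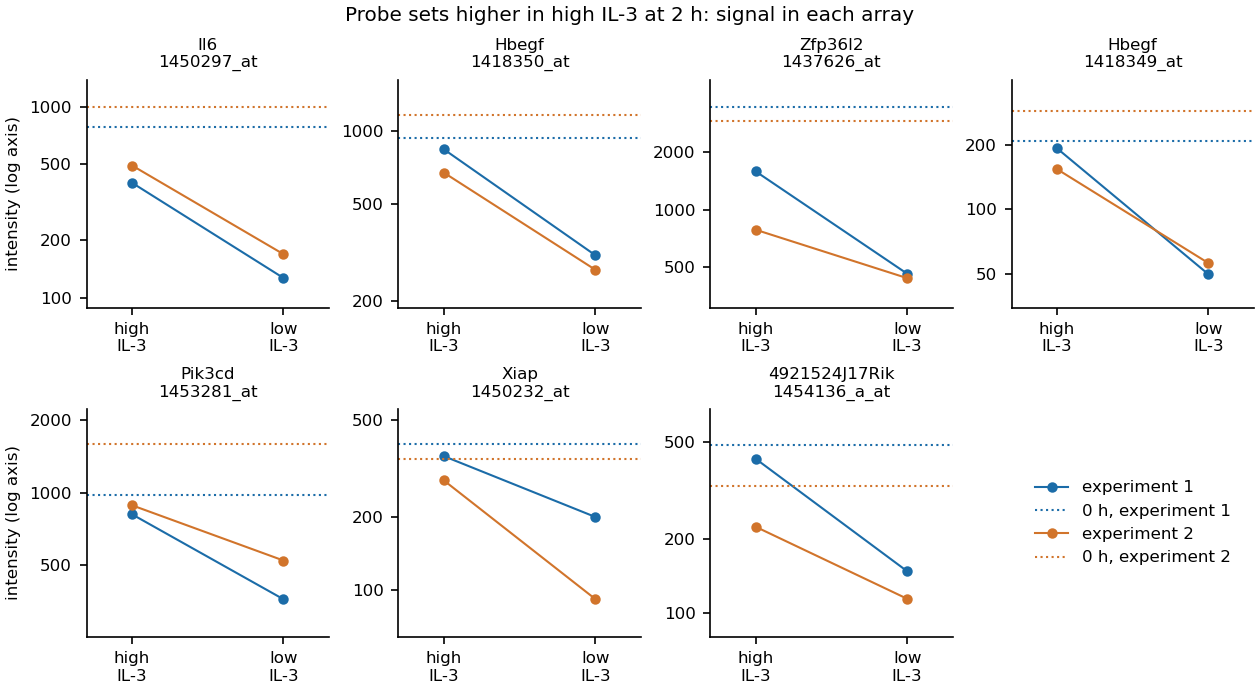
Intensity (log axis, dChip units) of the 7 probe sets that passed, in each 2 h array: high IL-3 on the left, low IL-3 on the right, with a line joining the 2 arrays of an experiment and dotted lines at the 0 h signal. In each panel both high IL-3 points lie above both low IL-3 points; for Il6 they are 400 and 493 against 127 and 169.

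The spread between the experiments sets the scale of these differences. Over all 11856 probe sets the dose difference had an SD of 0.275 in experiment 1 and 0.247 in experiment 2, and the differences of the 2 experiments correlated across probe sets at r = 0.14, where probe sets are not independent replicates. In experiment 1, 71 probe sets were at least 2-fold higher in high IL-3 and 17 at least 2-fold lower. In experiment 2 these counts were 26 and 18. Only 4 probe sets were at least 2-fold higher in both: the 2 of Hbegf, that of Il6, and 1421821_at, which the annotation table used here pairs with no gene and which read 610 and 276 in high IL-3 and 284 and 113 in low IL-3 (1.12 ± 0.20, adjusted p = 0.054). None was at least 2-fold lower in both. In 2992 probe sets (25.2%) high IL-3 was higher in both experiments and in 3390 (28.6%) it was lower in both. The 2 arrays of high IL-3 lay above both of low IL-3 in 898 (7.57%) and below both in 919 (7.75%). With 2 pairs, an exact two-sided permutation test of a single probe set cannot go below p = 0.5, so the calls rest on the variance that limma shares across probe sets.

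**Figure D2:**
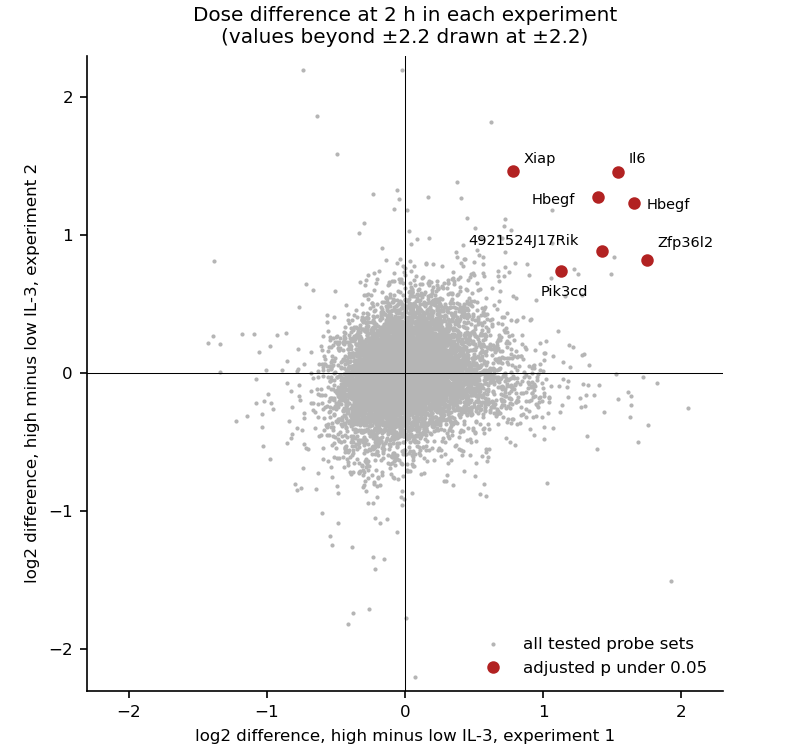
Log2 difference of high minus low IL-3 at 2 h in experiment 1 (horizontal) and experiment 2 (vertical) for the tested probe sets (grey) and the 7 that passed (red); values beyond 2.2 either way are drawn at 2.2. The cloud is round, with r = 0.14, and is stretched to the right by probe sets that differed in experiment 1 alone, while the 7 lie in the upper right corner, with Il6 at 1.54 and 1.46.

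The next 6 transcripts missed the threshold on the upper side, and by the naming rule they are given as not passing. Gch1, GTP cyclohydrolase, the first enzyme of tetrahydrobiopterin synthesis, read 275 and 442 in high IL-3 and 165 and 214 in low IL-3 (0.84 ± 0.15, adjusted p = 0.055). Another Gch1 probe set, 1429692_s_at, had 0.19 ± 0.19 (adjusted p = 0.88). Yrdc, which takes part in the threonylcarbamoyl modification of tRNA, read 345 and 537 in high IL-3 and 156 and 271 in low IL-3 (1.00 ± 0.18, adjusted p = 0.058). For both genes the groups differed in each experiment by a similar amount, with 0.68 and 1.00 for Gch1 and 1.06 and 0.94 for Yrdc, although the Gch1 and Yrdc signals were higher in experiment 2 throughout. Pim3, a serine/threonine kinase of the Pim family, had 151 and 83.5 in high IL-3 and 53.9 and 44.6 in low IL-3 (0.98 ± 0.19, adjusted p = 0.070). Its other probe set had 0.29 ± 0.25 (adjusted p = 0.86). Gadd45a, a p53 and stress target that restrains the cell cycle, had 178 and 128 in high IL-3 and 52.1 and 64.6 in low IL-3 (1.18 ± 0.24, adjusted p = 0.098). Tmem199 (0.89 ± 0.16, adjusted p = 0.054) and Pdxp, pyridoxal phosphatase (1.22 ± 0.24, adjusted p = 0.079), complete the group. All 6 passed in some alternative fits, among them the fit on 1 probe set per gene, in which 14 probe sets were higher and 4 lower.

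The 8 transcripts that the study followed on Northern blots had 16 tested probe sets. Of these 3 passed, namely those of Il6, Zfp36l2 and Pik3cd described above. At an unadjusted p under 0.05, 11 had higher signal in high IL-3 and none lower, beside 4.40% and 2.92% of all probe sets. The median difference was 0.59 against 0.00 over all probe sets. The study picked most of these transcripts from the same arrays, so their direction here is no independent evidence. Its Northern blots, which compared 1 ng/ml IL-3 with medium alone, are reported to show slower decay with IL-3 for each of them. Cdkn1a, the p21 inhibitor of cyclin-dependent kinases, read 2164 and 1427 in high IL-3 and 1522 and 811 in low IL-3 at 1424638_at (0.65 ± 0.14, adjusted p = 0.11). At 1421679_a_at it had 0.80 ± 0.22 (adjusted p = 0.37). The value at 1424638_at was 0.50 in experiment 1 and 0.80 in experiment 2, above 0 in both, and did not pass.

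Zfp36l1, the close relative of Zfp36l2, had 809 and 562 in high IL-3 and 440 and 421 in low IL-3 (0.63 ± 0.15, adjusted p = 0.24). Pim1, a kinase induced by STAT5, had 1127 and 814 in high IL-3 and 835 and 576 in low IL-3 (0.46 ± 0.16, adjusted p = 0.60). Cited2, a transcriptional co-regulator that binds CBP and p300, lost most of its signal in both doses. Its probe set 1452207_at kept 15.5% and 8.36% of the 0 h signal in high IL-3 and 9.91% and 6.53% in low IL-3, with a difference of 0.48 ± 0.18 (adjusted p = 0.63). Taking the brightest probe set of each transcript, Myb, the transcription factor of immature haematopoietic cells, was nearest to 0. Its probe set 1421317_x_at read 1836 and 1094 in high IL-3 and 1705 and 1097 in low IL-3, a difference of 0.05 with a 95% interval of -0.18 to 0.28. The 2 other Myb probe sets had fitted differences of 0.32 and 0.46, with 0.77 and 0.99 in experiment 1 and -0.13 and -0.07 in experiment 2.

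The named transcripts sit within lists that otherwise moved little. Among ligands and growth factors, 15 of 41 genes on the array were measured, by 20 probe sets. Of these 3 passed as higher, all of Il6 and Hbegf. At an unadjusted p under 0.05, 5 had higher and 1 had lower signal, beside 4.40% and 2.92% of all probe sets. The median was 0.08 (-0.04 with the 2 h array of experiment 1 in high IL-3 left out). Il4, the cytokine of type 2 helper T cells and mast cells, read 154 and 166 in high IL-3 and 88.1 and 76.5 in low IL-3 (0.84 ± 0.19, adjusted p = 0.17). The chemokine Cxcl2 had 0.60 ± 0.28 (adjusted p = 0.68), and Ccl5, another chemokine, had -0.55 ± 0.21 (adjusted p = 0.63).

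Of 10 probe sets of cytokine receptor subunits none passed, and their median was 0.14. It was -0.07 with the 2 h array of experiment 1 in high IL-3 left out and 0.36 with that of experiment 2 left out. Il3ra had 544 and 388 in high IL-3 and 424 and 392 in low IL-3, a difference of 0.17 with a 95% interval of -0.14 to 0.48. The beta chains were near 0, with -0.04 for Csf2rb (interval -0.38 to 0.30) and 0.00 for Csf2rb2 (interval -0.26 to 0.26). In the PI 3-kinase and AKT list, Pik3cd was the only gene of 18 with a probe set that passed, and the median of 29 probe sets was 0.05. Pik3ca, the alpha catalytic subunit, had -0.43 ± 0.20 (adjusted p = 0.67). Of 39 probe sets of JAK/STAT5 targets and SOCS genes none passed, 4 had an unadjusted p under 0.05 for higher and 1 for lower signal, and the median was -0.01. The counts, beside 4.40% and 2.92% of all probe sets, were 1 and 1 with the 2 h array of experiment 1 in high IL-3 left out, and 6 and none with that of experiment 2 left out. Stat5a itself (0.68 ± 0.30, adjusted p = 0.66) differed by 1.54 in experiment 1 and by -0.19 in experiment 2. The MEK/ERK feedback regulators had a median of 0.03 over 15 probe sets with none passing, while 41.7% and 44.1% of their 0 h signal was left in high IL-3 and 43.3% and 47.6% in low IL-3 (medians).

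Immediate early transcripts lost most of their signal in both doses as well. The median left at 2 h was 36.5% and 21.9% in high IL-3 and 32.2% and 17.7% in low IL-3. None of 34 probe sets passed, 4 had an unadjusted p under 0.05 for higher and 1 for lower signal, and the median difference was 0.07. The counts were 1 and 2 with the 2 h array of experiment 1 in high IL-3 left out, and 1 and 1 after 75th percentile scaling or quantile normalization, and the median was -0.08 with the 2 h array of experiment 2 in low IL-3 left out. Against 4.40% and 2.92% of all probe sets, these unadjusted counts are no result about the list. Ier2, an immediate early response gene, had 464 and 245 in high IL-3 and 179 and 222 in low IL-3 (0.72 ± 0.30, adjusted p = 0.66), a difference of 1.30 in experiment 1 and 0.14 in experiment 2. Mcl1, the short-lived antiapoptotic protein of the BCL2 family, had 236 and 237 in high IL-3 and 135 and 199 in low IL-3 (0.49 ± 0.22, adjusted p = 0.67).

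The machinery of mRNA decay was described by 71 probe sets of 40 genes. Zfp36l2 was the only member to pass. Of the others, 7 had an unadjusted p under 0.05 for higher and 3 for lower signal, beside 4.40% and 2.92% of all probe sets. The median was 0.01. The counts over all 71, 8 and 3, were 5 and 5 with the 2 h array of experiment 1 in high IL-3 left out, and after 75th percentile scaling or quantile normalization, 6 and 6. Mphosph6, a cofactor of the RNA exosome, had 651 and 390 in high IL-3 and 380 and 228 in low IL-3 (0.74 ± 0.19, adjusted p = 0.26), with nearly the same difference in both experiments (0.75 and 0.74). Exosc4, an exosome subunit, had 0.42 ± 0.18 (adjusted p = 0.66). On the lower side were Tob2, which binds the CCR4-NOT deadenylase (-0.49 ± 0.17, adjusted p = 0.59), Pum2, a Pumilio repressor (-0.38 ± 0.16, adjusted p = 0.66), and Ddx6, a helicase of P bodies (-0.37 ± 0.16, adjusted p = 0.66). The largest fitted value of the list, that of Xrn2 (2.17, adjusted p = 0.66), came from 1 array: 1422843_at read 5.97 and 909 in high IL-3 and 20.7 and 11.5 in low IL-3.

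Among cell cycle genes, unadjusted differences were upward more often than downward, as they were over all probe sets (60.1% upward). That direction is not settled by these arrays. Of 27 probe sets of cell cycle inhibitors and p53 targets, 7 had an unadjusted p under 0.05 for higher signal and none for lower, against 4.40% and 2.92% of all probe sets; none passed the adjusted threshold and the median was 0.03. These counts were 5 and none, and the median -0.004, with the 2 h array of experiment 1 in high IL-3 left out. Mdm2, the ligase that degrades p53, had 374 and 280 in high IL-3 and 207 and 187 in low IL-3 (0.68 ± 0.17, adjusted p = 0.27), and Cdkn2d, the p19 inhibitor of CDK4 and CDK6, had 0.50 ± 0.17 (adjusted p = 0.59). In 103 probe sets of G1/S and DNA replication, 9 were higher and 2 lower at an unadjusted p under 0.05, with a median of 0.05; with the 2 h array of experiment 2 in low IL-3 left out, 4 and 2. They included Rrm2, a subunit of ribonucleotide reductase (0.42 ± 0.11, adjusted p = 0.26), Cdc6, a licensing factor (0.69 ± 0.19, adjusted p = 0.37), Orc6 of the origin recognition complex (0.53 ± 0.15, adjusted p = 0.37) and the phosphatase Cdc25a (0.67 ± 0.25, adjusted p = 0.63). In 74 probe sets of G2/M and mitosis, 4 were higher and none lower by that measure, with a median of 0.06, and 34 were higher in both experiments against 10 that were lower in both, beside 25.2% and 28.6% of all probe sets. With the 2 h array of experiment 2 in low IL-3 left out, 1 was higher and the median was 0.015, and with that of experiment 2 in high IL-3 left out, 7 were higher. Aurka, the Aurora A kinase, had 417 and 286 in high IL-3 and 233 and 157 in low IL-3 (0.80 ± 0.18, adjusted p = 0.17), with 0.80 in each experiment.

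Apoptosis regulators had a median of 0.12 over 44 probe sets, and 1450232_at of Xiap was the only one to pass. Cflar, the caspase-8 inhibitor FLIP, had 0.47 ± 0.18 (adjusted p = 0.63). Bcl2l11, the proapoptotic BIM whose level cytokines are known to lower, had 92.2 and 79.7 in high IL-3 and 120 and 99.7 in low IL-3 (-0.30 ± 0.17, adjusted p = 0.75). The median of the list was -0.04 with the 2 h array of experiment 1 in high IL-3 left out. Myeloid transcription factors had a median of 0.09 over 52 probe sets with none passing. The Max-like protein Mlx had 0.52 ± 0.17 (adjusted p = 0.56), the Max-binding repressor Mxi1 had 0.32 ± 0.11 (adjusted p = 0.60), and Runx1, a regulator of blood cell development, had -0.56 ± 0.21 (adjusted p = 0.63).

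**Figure D3:**
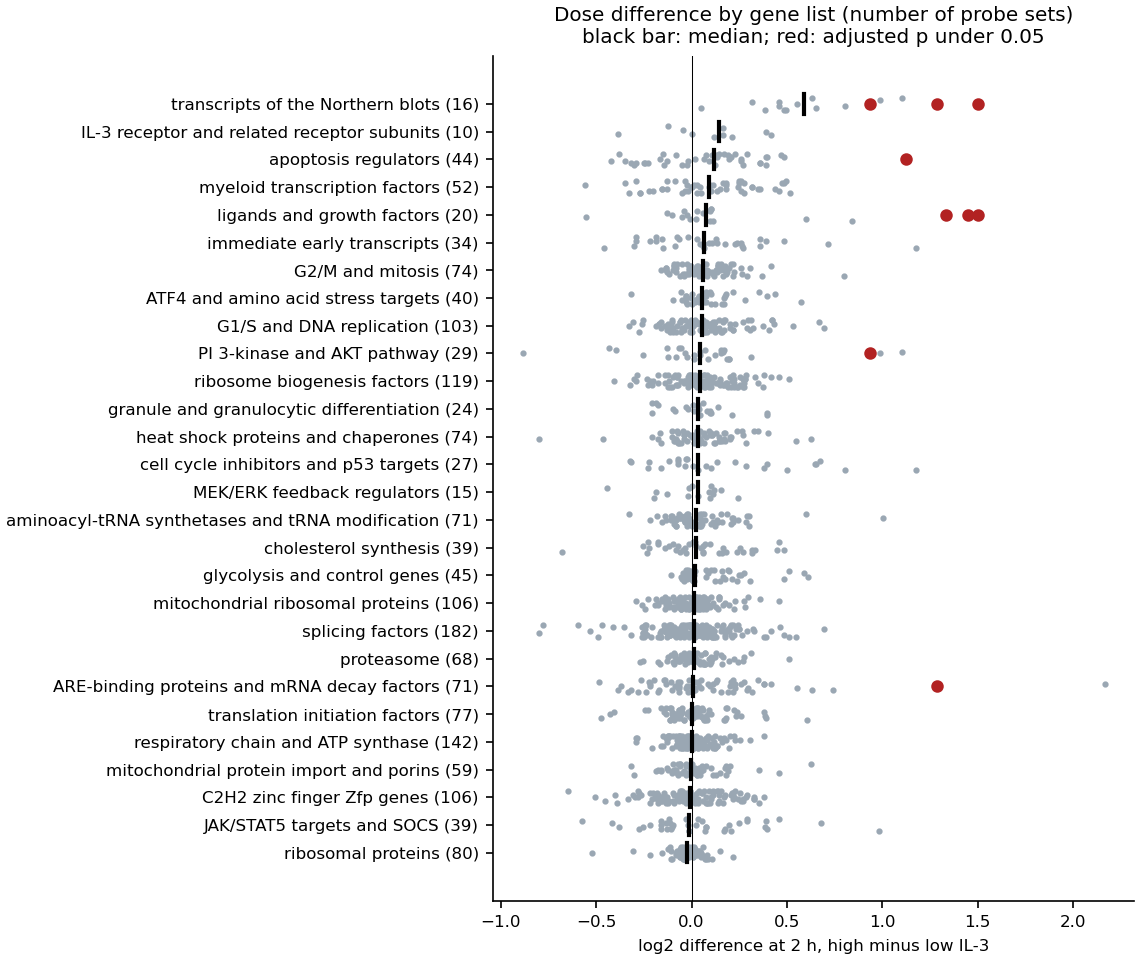
Log2 difference of high minus low IL-3 at 2 h (horizontal) for the probe sets of each gene list with at least 10 of them (rows, with their number): grey points are probe sets, black bars medians and red points those that passed. Medians lie between -0.03 for ribosomal proteins and 0.14 for cytokine receptor subunits, except for the Northern blot transcripts at 0.59, and the red points lie between 0.94 and 1.50.

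Genes of the translation apparatus and of mitochondrial import held single members with small, even differences. Eef1e1, an auxiliary protein of the aminoacyl-tRNA synthetase complex, had 1616 and 1357 in high IL-3 and 1001 and 940 in low IL-3 (0.60 ± 0.15, adjusted p = 0.26). Timm17a, a channel subunit of the inner membrane translocase, had 1129 and 1156 in high IL-3 and 823 and 829 in low IL-3 (0.46 ± 0.12, adjusted p = 0.32). Eif4a1, the helicase of translation initiation, had 4974 and 4871 in high IL-3 and 4507 and 4178 in low IL-3 (0.18 ± 0.06, adjusted p = 0.45). None of these 3 passed at 2 h, and all 3 passed at 4 h, with 0.94 (adjusted p = 0.015), 0.97 (adjusted p = 0.0020) and 0.44 (adjusted p = 0.0020), while their change between the times did not pass (adjusted p = 0.86 to 0.93). The lists around them had medians of 0.02 for aminoacyl-tRNA synthetases and tRNA modification, 0.00 for mitochondrial import and 0.00 for initiation factors. Eif4ebp2, which represses cap-dependent initiation, had 961 and 1073 in high IL-3 and 1355 and 1351 in low IL-3 (-0.41 ± 0.11, adjusted p = 0.36).

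Stress and metabolic lists were similar. ATF4 and amino acid stress targets had 4 of 40 probe sets higher and none lower at an unadjusted p under 0.05, and 18 higher in both experiments against 2 lower in both, with a median of 0.06. Of all probe sets, 4.40% and 2.92% had such a p, and 25.2% and 28.6% were higher or lower in both. With the 2 h array of experiment 1 in high IL-3 left out, 1 was higher and none lower. Atf4, the transcription factor itself, had 2583 and 2115 in high IL-3 and 1918 and 1741 in low IL-3 (0.35 ± 0.12, adjusted p = 0.60), and Ppp1r15a, the regulatory subunit that directs eIF2 alpha dephosphorylation, had 0.57 ± 0.21 (adjusted p = 0.61). Of 45 probe sets of glycolysis and control genes, 6 were higher and none lower at an unadjusted p under 0.05, among them hexokinase Hk2 (0.51 ± 0.15, adjusted p = 0.39) and phosphofructokinase Pfkp (0.59 ± 0.18, adjusted p = 0.42). These counts were 1 and 2 with the 2 h array of experiment 1 in high IL-3 left out. Gapdh, the loading control of the study, was flat: its 3 control probe sets had differences of -0.01, 0.02 and -0.02, with 7727 and 7653 in high IL-3 and 7372 and 8188 in low IL-3 at the first.

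On the lower side no transcript passed. The 6 with the smallest p were Pik3c3, the class III PI 3-kinase of autophagy and endosomes (-0.89 ± 0.17, adjusted p = 0.070), Thrap3, a splicing-associated factor (-0.80 ± 0.16, adjusted p = 0.098), the small heat shock protein Hspb1 (-0.80 ± 0.16, adjusted p = 0.11), the chromatin remodeller Smarcad1 (-1.06 ± 0.22, adjusted p = 0.11), Fam160b1 (-0.86 ± 0.18, adjusted p = 0.11) and Lpp, a focal adhesion protein (-0.81 ± 0.18, adjusted p = 0.17). Pik3c3 read 251 and 158 in high IL-3 and 369 and 396 in low IL-3, against 430 and 394 at 0 h. Hspb1 read 130 and 77.4 in high IL-3 and 237 and 147 in low IL-3, against 223 and 113 at 0 h. In both, the high IL-3 arrays at 2 h were below the 0 h level and the low IL-3 arrays closer to it. Signal in high IL-3 was higher again at 4 h, with 314 and 237 for Pik3c3 and 204 and 145 for Hspb1. It was also higher at 4 h in both experiments for Smarcad1, Fam160b1 and Lpp, and for Thrap3 in experiment 1 only. Signal that rises under a transcription block is not read as decay here, and its source was not tested. Smarcad1 read 249 and 244 in high IL-3 and 329 and 848 in low IL-3, against 256 and 455 at 0 h. Its difference was -0.38 in experiment 1 and -1.73 in experiment 2. In experiment 2 the high IL-3 array lay below the 0 h level and the low IL-3 array above it. Where a gene of the 6 had other probe sets, they did not repeat the value: Thrap3 had 0.51 and -0.12, Smarcad1 0.10, Fam160b1 -0.24 and Lpp 0.17, 0.02 and 0.16.

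The 4 h arrays, which are separate samples of the same 2 experiments, were set beside the 2 h values; both comparisons share 1 fit and the experiment block. At 4 h, 46 probe sets (0.388%) were higher in high IL-3 and 2 (0.0169%) lower, with 639 (5.39%) and 228 (1.92%) at an unadjusted p under 0.05. With a 4 h array of high IL-3 left out the higher count was 12 (experiment 1) or 8 (experiment 2), and with one of low IL-3 left out, 3 or 15. Of the 522 probe sets higher at 2 h at an unadjusted p under 0.05, 148 (28.4%) were also higher at 4 h by that measure, and 272 (52.1%) were higher in both experiments at 4 h, against 26.2% of all probe sets. Of the 346 that were lower at 2 h, 10 (2.89%) were lower at 4 h and 11 (3.18%) higher. The upper side thus recurred in the later arrays more often than all probe sets did, whereas the share of the lower side that recurred was near the 1.92% of all probe sets. The median difference of the 522 was 0.43 at 2 h and 0.12 at 4 h, and that of the 346 was -0.41 at 2 h and 0.02 at 4 h.

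Of the 46 probe sets that passed at 4 h, 39 were higher in both experiments at 2 h, 23 were higher at an unadjusted p under 0.05 at 2 h and 5 had passed at 2 h. Of all probe sets, 25.2% were higher in both experiments at 2 h and 4.40% were higher at that p. Both comparisons use the same variance estimate of a probe set, so the p-values of the 2 times are not independent. The median difference of the 46 was 0.29 at 2 h and 0.76 at 4 h. The 5 were those of Il6 (1.39 at 4 h, adjusted p = 2.6e-04), Hbegf (1.80 and 1.88, adjusted p = 5.4e-05 and 3.6e-04), Pik3cd (0.83, adjusted p = 0.024) and Xiap (1.05, adjusted p = 0.030). The transcript 4921524J17Rik had 0.89 at 4 h (adjusted p = 0.068). Zfp36l2 had 0.35 at 4 h (adjusted p = 0.70), when its intensity was 382 and 323 in high IL-3 and 286 and 260 in low IL-3. Its dose difference was thus 0.94 lower at 4 h than at 2 h (SE 0.25), which did not pass after adjustment (adjusted p = 0.76). Hbegf in high IL-3 held its 2 h signal, with 886 and 764 at 4 h, against 210 and 242 in low IL-3.

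No probe set had a dose difference that changed between 2 h and 4 h at an adjusted p under 0.05 in limma (0% of those tested; 684 at an unadjusted p under 0.05). With the 2 h array of experiment 2 in high IL-3 left out, 147 passed, and with that of experiment 1 left out, 13. The smallest adjusted p of the full fit was 0.051, for Osbpl2, an oxysterol-binding protein, with -0.61 at 2 h and 0.80 at 4 h. Among the transcripts of the lower side, Pik3c3 had 0.25, Hspb1 0.18, Smarcad1 0.16, Fam160b1 0.37 and Lpp -0.02 at 4 h. Thrap3 was the exception, with -0.92 at 4 h (adjusted p = 0.030), and is 1 of the 2 probe sets that were lower there. On the upper side, Gch1 (1.09, adjusted p = 0.0051), Yrdc (1.04, adjusted p = 0.030), Il4 (1.29, adjusted p = 0.0075), Cdkn1a (0.88, adjusted p = 0.013) and Zfp36l1 (0.89, adjusted p = 0.029) passed at 4 h and not at 2 h, and none of them had a time difference that passed.

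**Figure D4:**
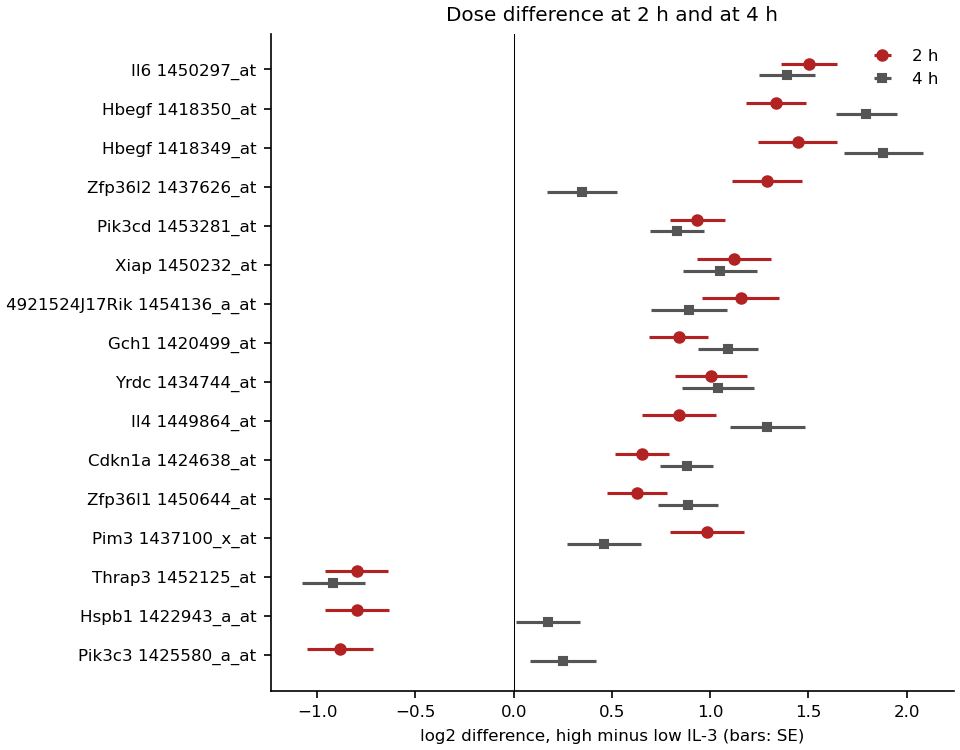
Log2 difference of high minus low IL-3 at 2 h (red circles) and at 4 h (grey squares), with SE bars, for the 7 probe sets that passed at 2 h and 9 that did not. Il6 is at 1.50 and 1.39, Zfp36l2 at 1.29 and 0.35, Il4 at 0.84 and 1.29, and Hspb1 and Pik3c3 lie below 0 at 2 h and above it at 4 h.

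Transcripts that lost most of their signal by 4 h were more often higher in high IL-3 at 2 h than stable ones, at an unadjusted p. Over all tested probe sets the median share of the 0 h signal left at 2 h was 91.4% and 95.0% in high IL-3 and 93.6% and 97.7% in low IL-3, and the fitted log2 value was at least 1 below 0 h for 908 probe sets in high IL-3, against 1010 in low IL-3. The probe sets were grouped by the share of the 0 h signal left at 4 h in low IL-3, on arrays that are not part of the 2 h comparison. These shares are of relative signal, and values above the 0 h level are no measure of RNA left. In the 808 with under 25% left, 14.4% had higher and 1.36% lower signal in high IL-3 at 2 h, at an unadjusted p under 0.05, the median difference was 0.11, and all 7 probe sets that passed were among them. A dose difference that lasts to 4 h also lowers the share left in low IL-3, so this grouping is not free of the dose effect. With 25 to 50% left, 7.64% were higher and 1.31% lower. In the largest group, of 3875 probe sets with 100 to 150% left, 2.25% were higher and 3.92% lower, with a median of -0.02. The unstable group was also dimmer and more variable, with a median intensity of 184 against 458 and an SD of the difference of 0.278 against 0.178.

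Grouping by the high IL-3 arrays at 4 h gave a like order of the unadjusted shares, with 10.4% higher and 1.46% lower where under 25% was left (756 probe sets) and 2.38% and 3.92% where 100 to 150% was left. The 7 that passed were spread over this grouping: 1 had under 25% left, 4 had 25 to 50%, 1 had 50 to 75% and 1 had 75 to 100%. The order was weaker in parts of the data. With the 2 h array of experiment 2 in low IL-3 left out, 5.45% of the under 25% group in low IL-3 were higher and its median was 0.01, against 2.74% of the 100 to 150% group. With that of experiment 2 in high IL-3 left out, these shares were 15.4% and 9.52%, and with that of experiment 1, 7.56% and 0.517%. The part of signal level in this order was not tested.

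**Figure D5:**
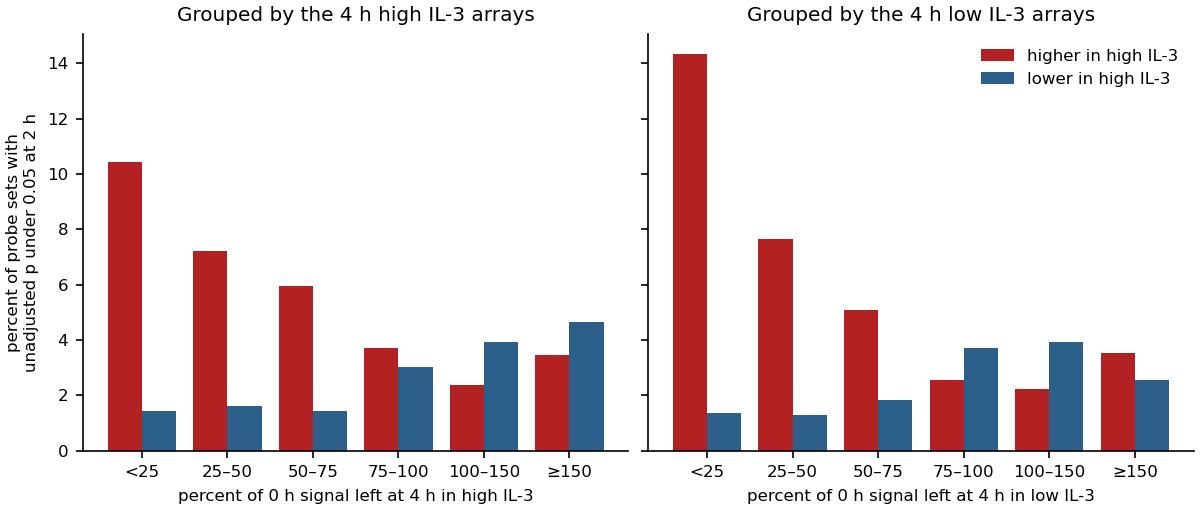
Share of probe sets (percent) with an unadjusted p under 0.05 at 2 h, higher (red) or lower (blue) in high IL-3, by the percent of 0 h signal left at 4 h in high IL-3 (left) or in low IL-3 (right). The red bars are highest in the least stable group, 10.4% and 14.4%, and fall toward 2.38% and 2.25% in the group with 100 to 150% left, where the blue bars reach 3.92% in both panels.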

How the data were processed

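RNA of 5 groups (0 h, and 2 h and 4 h in high or low IL-3), 2 arrays each, had been measured on 1-colour arrays. The deposited intensity values are on a linear scale; the authors normalized and summarized all arrays together with dChip, whose version and genome build are not given in the sources used here. Values are not centred and are no ratios, and depth has no meaning for them: precision depends on how many arrays there are. Gene names came from GEO's annotation of the array design, and a RefSeq gene table (GRCm38.p6) gave current symbols. Of the probe sets, 20393 name 1 gene, 691 several (none used) and 1606 none.

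Tests used limma 3.58.1 (R 4.3.3) on log2(intensity + 16) for probe sets with a mean of at least 50 over the 10 arrays, with 5 group means, the experiment as a block, eBayes with a trend, and Benjamini-Hochberg adjustment at 0.05 over all 11856, of which 58 are control probe sets. The experiment pairs the arrays, since each experiment divided 1 culture; deviations of its arrays from their group means correlated at 0.762 to 0.887. Adding 16 understates the differences of dim probe sets. The fit had 4 residual degrees of freedom. Steps were tested on simulated data. Other tools were Python 3.11.15, pandas 2.3.3, numpy 2.4.6 and matplotlib 3.10.9.

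The comparison, the 33 gene lists and the named genes were chosen with earlier results of these data known. Named were up to 15 rises and 10 falls that passed, the 6 smallest p values in a direction with fewer than 10, the transcripts of the study's Northern blots, up to 4 members of each list per direction, and Hbegf, Gapdh, the IL-3 receptor genes and Bcl2l11; Xrn2, Pfn1, Osbpl2, 1421821_at, Zap70 and Thrsp were chosen after their values were seen. Alternatives were pseudocounts of 1 and 64, no filter or a mean of 200, quantile normalization, scaling of arrays to their 75th percentile, scaling to Gapdh, a fit with no trend, one with no block, the 4 arrays of a time alone, 1 probe set per gene, each array left out and, chosen after seeing the data, no control probe sets.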

Additional observations from a re-analysis of the deposited data

How the results depend on the processing

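At 2 h, where 7 probe sets were higher and 0 lower, the counts were 2 and 0 without a filter, after 75th percentile scaling and after quantile normalization, 16 and 2 after scaling to Gapdh, 1 and 0 without the trend, 14 and 4 with 1 probe set per gene, and 0 and 0 on the 4 arrays of the time alone (419 and 370 at an unadjusted p under 0.05). Without the replicate block they were 0 and 0 (57 and 31 unadjusted), and 0 and 0 at 4 h (117 and 8 unadjusted), so no call held without it. Leaving out 1 array gave 2 to 222 higher and 0 to 14 lower; the lone array of a group is then assumed to vary like the other groups. Of 20 to 22 alternatives, Il6 lost its call in 2, Hbegf in 3 (1418350_at) and 9 (1418349_at), Zfp36l2 in 8, Xiap in 10, Pik3cd in 11 and 4921524J17Rik in 12, with adjusted p of up to 1 for each.

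At 4 h, with 46 higher and 2 lower, the counts were 16 and 1 with a pseudocount of 64, 7 and 0 without a filter, 20 and 0 after 75th percentile scaling, 28 and 1 after quantile normalization, 50 and 1 after scaling to Gapdh, 3 and 0 without the trend, 149 and 34 on 4 arrays and 49 and 1 with 1 probe set per gene; leaving out arrays gave 3 to 62 and 0 to 7. The change from 2 h to 4 h gave 1 probe set (Osbpl2) without control probe sets, an alternative chosen after seeing the data, and with the filter of 200, 2 after scaling to Gapdh, 3 with 1 probe set per gene and 0 to 147 with an array left out.

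Some values changed sign with an array left out, and not only those near 0: Stat5a had 0.68 in the full fit, and Myb had 0.32 and 0.46 at the probe sets other than its brightest. The ranges were -0.083 to 0.18, -0.12 to 0.75 and -0.12 to 1.04 for Myb, -0.088 to 0.058, -0.044 to 0.084 and -0.13 to 0.095 for Gapdh, -0.016 to 0.35 for Il3ra, -0.14 to 0.051 for Csf2rb, -0.14 to 0.14 for Csf2rb2, -0.025 to 0.41 for Gch1 1429692_s_at, -0.14 to 0.47 and -0.20 to 0.24 for Lpp and -0.019 to 1.38 for Stat5a. Csf2rb2 had -0.016 after 75th percentile scaling and -0.0044 after quantile normalization, where Gapdh had 0.015. Over the named probe sets and alternatives, 1985 values kept direction and call, 55 lost a call, 79 gained one and 23 changed sign. The causes were not tested. With 2 arrays a group, precision is limited.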

Other observations

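The large protein complexes of the cell gave small values. Ribosomal protein genes had a median log2 difference of -0.03 over 80 probe sets, with 1 higher and 3 lower in high IL-3 at an unadjusted p under 0.05, and kept 102% and 96.7% of their 0 h signal in high IL-3 and 101% and 101% in low IL-3 (medians, experiments 1 and 2). The respiratory chain and ATP synthase had a median of 0.00 over 142 probe sets and the proteasome 0.01 over 68. The C2H2 Zfp genes were less stable, with 55.2% and 56.7% left in high IL-3 and 54.9% and 54.5% in low IL-3, and also had a median near 0 (-0.01 over 106 probe sets). Ribosome biogenesis factors had a median of 0.04 over 119 probe sets. At an unadjusted p under 0.05, 5 were higher and 1 lower, beside 4.40% and 2.92% of all probe sets. Among them were Imp3 (0.51 ± 0.14, adjusted p = 0.37) and Gnl3 (-0.41 ± 0.17, adjusted p = 0.66), both nucleolar proteins.

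Among splicing factors, 13 of 182 probe sets were higher and 8 lower at an unadjusted p under 0.05, beside 4.40% and 2.92% of all probe sets. None passed the adjusted threshold. After 75th percentile scaling the counts were 8 and 10. The median was 0.01. It was -0.04 with the 2 h array of experiment 1 in high IL-3 left out and 0.04 with that of experiment 2 left out. Probe sets of 1 gene went both ways: Hnrnpab had 0.21 ± 0.08 at 1453849_s_at (adjusted p = 0.61) and -0.24 ± 0.06 at 1426114_at (adjusted p = 0.32). Srsf1 (0.70 ± 0.24, adjusted p = 0.59) differed by 1.33 in experiment 1 and 0.06 in experiment 2. Hspa9, the mitochondrial HSP70, differed by 1.02 and 0.23. Both were among the probe sets with higher signal in experiment 2 than in experiment 1 at 0 h, with 402 and 1238 for Srsf1 and 148 and 288 for Hspa9 in experiments 1 and 2. Single arrays set 2 further values: Zap70 read 27.0 and 334 in high IL-3 and 27.8 and 13.2 in low IL-3, and Thrsp read 6.21 and 12.4 in high IL-3 and 5.14 and 463 in low IL-3.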
